A study of Mus musculus with 4 samples.

Results

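The receptors described here are those by which myeloid cells read their surroundings: C-type lectins, Fc receptors, the four-pass Ms4a proteins, Siglecs, Lilr and Pir receptors, the Cd300 family and the Trem family. They were taken by gene name, as the probes whose name on the array begins with Clec and a digit (without Clec11a), Fcgr, Fcer, Ms4a, Siglec, Lilr, Pira, Pirb, Cd300 or Trem, which gave 83 genes among the 48089 genes and unnamed features of the array (108 of 55681 probes). The set holds 30 C-type lectin genes, 18 Ms4a, 8 Lilr and Pir, 7 Cd300, 6 Siglec, 6 Trem, 5 Fc gamma and 3 Fc epsilon receptor genes. The RNA came from cells sorted as adipocyte progenitors, the precursors of fat cells, out of the subcutaneous fat pads of FVB males aged 4 weeks, and was taken straight after the sort. Mice carrying an Adamts1 transgene gave 2 samples and wild-type mice gave 2, each on 1 single-colour Agilent array labelled from low RNA input. ADAMTS1 is a secreted metalloprotease that cuts matrix proteoglycans. The promoter of the transgene, the line behind it and the antibodies of the sort are not given in the labels. Nor do the labels say that samples were separate animals, so p-values measure only the spread between these samples, which may be technical.

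Many of these receptors come in pairs of opposite effect. Activating members such as Fcgr3, Clec4e, the Pira proteins and Trem2 have short tails and signal through the adaptors FcRγ (Fcer1g) or DAP12 (Tyrobp), whose ITAM motifs recruit the kinase Syk. Inhibitory members such as Fcgr2b, Pirb and Lilrb4a carry ITIM motifs in their own tails, which recruit the phosphatases encoded by Ptpn6 and Inpp5d. Not every gene with such a name is a myeloid receptor: Clec3b encodes the secreted protein tetranectin, Fcgrt the neonatal Fc receptor of many tissues, Clec16a an intracellular protein, and Clec14a a lectin of endothelial cells.

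The names hide a difference between probes that bears on which members could be measured. Siglech, a receptor of plasmacytoid dendritic cells, and Ms4a4c were each on the array with 3 probes, and in each gene 1 probe was far brighter than the others. Shown are 30 of the 60 bases of the bright probe and of another probe of the same gene, with simple repeats in capitals, followed by the stretch used for Trem1.
Siglech A_55_P2141013, bases 31 to 60: tctgtctcAAAGAAAGAAAGAAAGAAAGAA
Siglech A_55_P2141008, bases 1 to 30: attggattaatccagtgtgtgaacagtctt
Ms4a4c A_55_P2135980, bases 9 to 38: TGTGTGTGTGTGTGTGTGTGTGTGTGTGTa
Ms4a4c A_55_P2135986, bases 1 to 30: atcagcagtctaactctgaacactatcacc
Trem1 A_55_P2030284, bases 16 to 45: TGTTGTTGTTGTTGTTGTTGTTGTTGTTGT
The array's annotation places these probes on mouse build mm9 at chr7:63034088-63034147, chr7:63028608-63028667, chr19:11500839-11500898, chr19:11493486-11493545 and chr17:48385849-48385908. The bright Siglech probe ends in a GAAA repeat of 22 bases, and a run of 22 of its bases recurs in probes of Chat and Rgs7bp. The bright Ms4a4c probe holds a GT repeat of 29 bases, and 57 probes filed under other names share at least 20 consecutive bases with it. The Trem1 probe holds a repeat of the unit TGT over 39 bases and shares up to 33 consecutive bases with probes of 4 other genes.

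Signals are given as log2 of the background-subtracted signal relative to the 75th percentile of the same array. On this scale the bright Siglech probe read 7.95 and 7.85 on the transgenic arrays, against 7.89 and 7.83 on the wild-type arrays. A second Siglech probe read -3.47 and -3.91 on the transgenic arrays and -3.95 and -3.31 on the wild-type arrays, the value of wild-type array 1 not being well above background. The remaining Siglech probe was well above background on transgenic array 1 alone. The bright Ms4a4c probe read 5.41 and 5.43 on the transgenic arrays and 5.48 and 5.42 on the wild-type arrays, while the next probe read -2.58 and -2.73 on the transgenic arrays and -3.20 and -2.93 on the wild-type arrays. Neither gene's bright probe differed between the groups beyond the spread of the arrays (limma, adjusted p = 0.853 for Siglech and 0.861 for Ms4a4c). Over the whole array, 216 of the 250 probes with a simple repeat of 20 bases or more (86.4%) were well above background on all 4 arrays, against 24384 of all 55681 probes (43.8%). Among the receptor probes 4 hold such a repeat, those used for Siglech, Ms4a4c, Trem1 and the endothelial Cd300lg, and these 4 were above background on all 4 arrays. Which transcripts bind these probes was not tested.

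**Figure D1:**
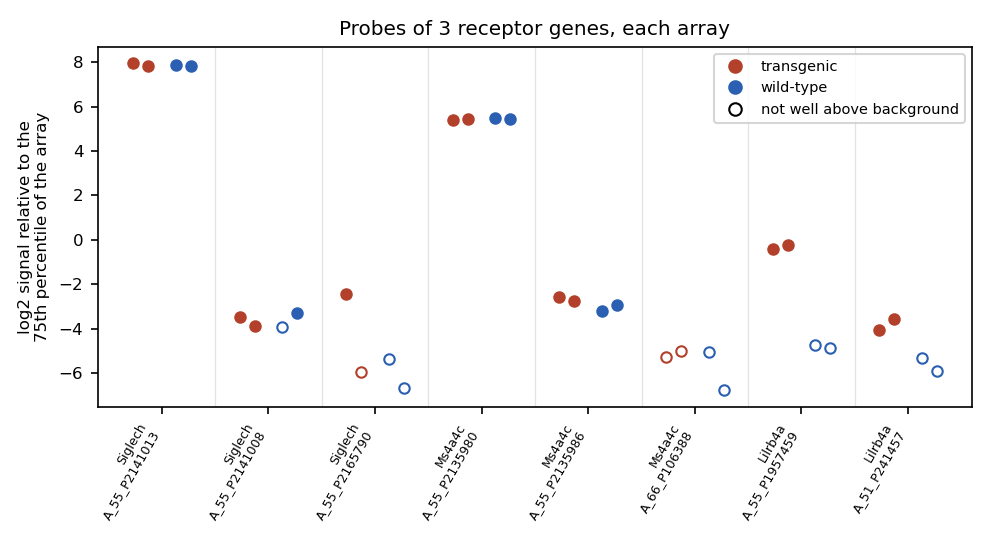
Log2 signal relative to the 75th percentile of the array for each probe of Siglech, Ms4a4c and Lilrb4a, transgenic arrays left of wild-type arrays in each column, with open circles for signals not well above background. The repeat-bearing first probes of Siglech and Ms4a4c lie near 7.9 and 5.4 on every array, while both Lilrb4a probes lie higher on the transgenic arrays.

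Receptor transcripts were more widely detected in the transgenic samples. Of the 108 receptor probes, 51 (47.2%) and 48 (44.4%) were well above background on the transgenic arrays, against 17 (15.7%) and 33 (30.6%) on the wild-type arrays. Over all probes the shares were 55.8% and 54.8% on the transgenic arrays and 45.9% and 54.4% on the wild-type arrays. Wild-type array 1 was the dimmer one, and the lowest signal that counted as above background was -3.40 there, against -4.77 and -4.69 on the transgenic arrays and -4.74 on wild-type array 2. On both transgenic arrays and neither wild-type array, 15 receptor probes (13.9%) of 14 genes were above background, where 1.57% of all probes did so. The reverse pattern held for no receptor probe and for 0.0862% of all probes. The 14 genes are Clec2i, Clec4d, Clec4e, Clec4n, Clec7a and Clec12b among the lectins, Fcgr2b and Fcgr3, Lilrb4a, Pira7 and Pirb, and Ms4a4a, Ms4a6d and Ms4a7.

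**Figure D2:**
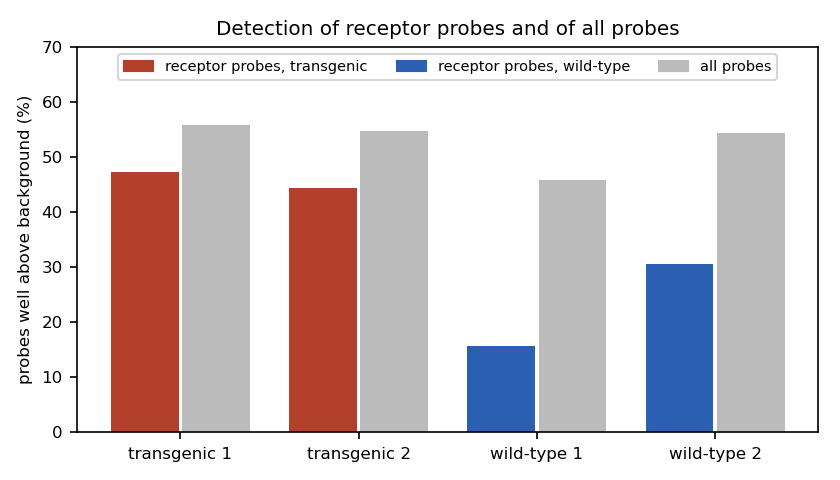
Percentage of probes well above background on each array, for the 108 receptor probes (coloured bars) and for all 55681 probes (grey bars). Receptor probes reach 47.2% and 44.4% on the transgenic arrays, against 15.7% and 30.6% on the wild-type arrays, while all probes stay between 45.9% and 55.8%.

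The brightest probe of each gene was used for the test, and 43 of the 83 genes could be tested, the others not being above background on both arrays of either group. With limma and an adjusted p under 0.05, 7 receptor genes were higher in the transgenic samples and 0 were lower, where 1.09% of the 24620 features tested were called higher and 0.751% lower. At an unadjusted p under 0.05, 21 receptor genes were higher and 2 lower (Trem1 and Cd300ld), a cut that 10.0% of all features passed as higher and 8.33% as lower. Of the tested genes 27 entered through the transgenic arrays alone and 0 through the wild-type arrays alone, a choice that favours genes higher in the transgenic samples, and the median difference of 0.81 over the 43 genes, against 0.01 over all features, carries it. Among the 16 genes above background on all 4 arrays, 2 were called higher, Clec10a and Fcer1g, beside 0.934% of the 20245 such features, and the median difference was -0.03 in both. The count of higher receptor genes became 2 or 1 when transgenic array 1 or 2 was left out, and 15 or 18 when wild-type array 1 or 2 was left out, a lone array being assumed to vary like the other group. The 2 calls among genes measured on all 4 arrays fell to 1, Clec10a, when transgenic array 1 or 2 was left out. Clec10a kept its call with any single array left out, Lilrb4a lost it without transgenic array 2, and the other 5 genes lost it without transgenic array 1 and again without transgenic array 2. With normexp background correction Clec7a, Fcgr3, Ms4a7 and Pirb lost their calls, and in a fit with no intensity trend Lilrb4a alone kept it.

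**Figure D3:**
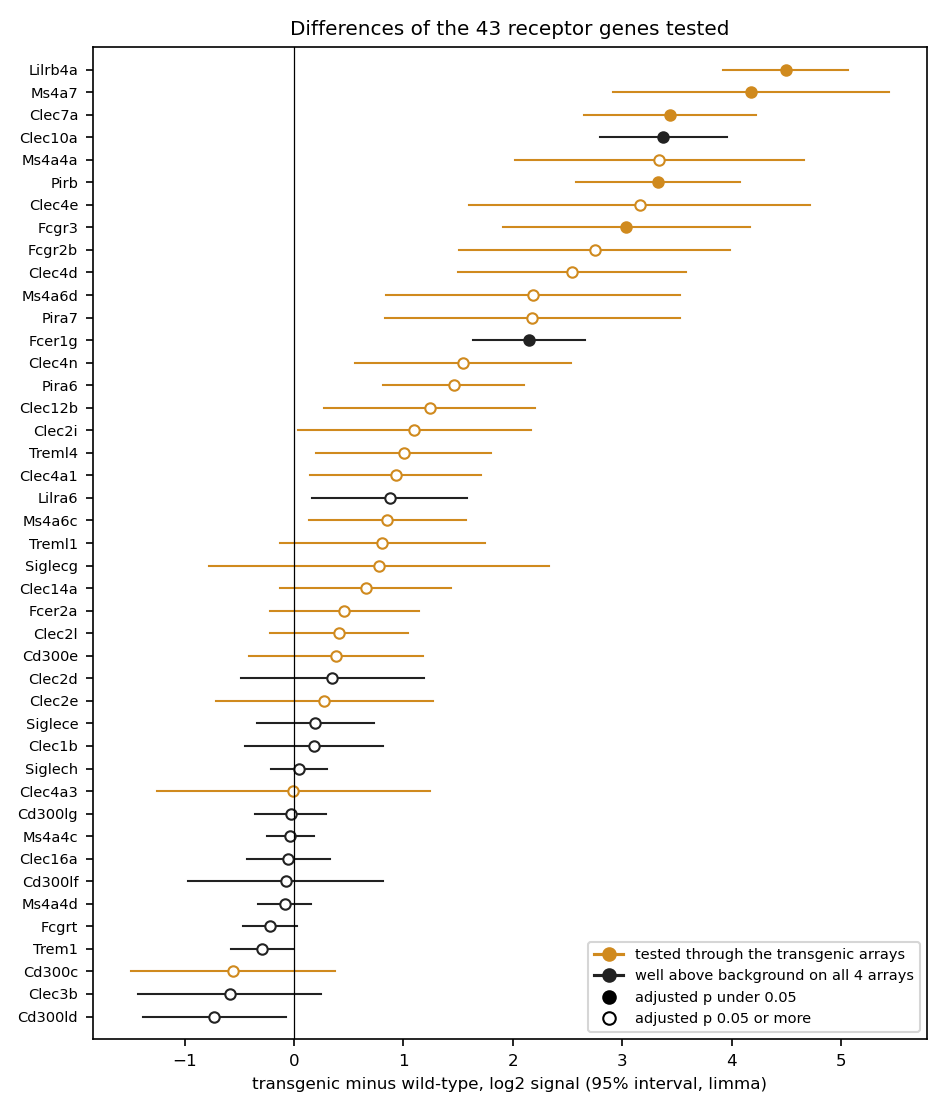
Difference in log2 signal, transgenic minus wild-type, with its 95% interval from limma for the 43 receptor genes tested. Filled circles mark the 7 genes with an adjusted p under 0.05, all to the right of 0. Orange marks genes tested through the transgenic arrays alone, whose plotted differences use wild-type signals not well above background on at least 1 array and have no exact size or order.

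Clec10a, a galactose-binding lectin carried by macrophages of fat and other tissues, had the largest difference among the receptor genes above background on all 4 arrays. It read 0.56 and 0.46 on the transgenic arrays, against -2.59 and -3.14 on the wild-type arrays (chr11:69984254-69984313, mm9). All 4 values were well above background and the groups lay far apart. Clec10a signal was thus 10.4-fold higher with the transgene (log2 difference 3.37 ± 0.23 SE, n = 2 each, 95% interval of the fold 6.94 to 15.5, limma adjusted p = 0.0132). With normexp background correction, which adds an offset to every signal, the difference was 2.17 and the call held. Of the other 4 lectins measured on all arrays none was called: Clec2d, a ligand of natural killer receptors, differed by 0.35 (adjusted p = 0.611), Clec1b, the platelet receptor for podoplanin, by 0.19, Clec16a by -0.05 and Clec3b by -0.59. Clec3b read 7.63 and 7.53 on the transgenic arrays and 7.64 and 8.69 on the wild-type arrays, so that wild-type array 2 alone stood apart.

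Clec7a, which encodes Dectin-1, the receptor for fungal β-glucan, read -2.16 and -2.22 on the transgenic arrays, against -5.42 and -5.83 on the wild-type arrays (chr6:129411739-129411798). Both wild-type values were not well above background, so only a bound can be given. For such genes the mean of the transgenic arrays is set against the lowest signal that counted as above background on each wild-type array. Clec7a was at least 3.69-fold higher in the transgenic samples (limma adjusted p = 0.0213), and the bound ran from 2.32-fold to 5.86-fold with 1 array left out. With normexp the log2 difference was 0.65, below the log2 bound of 1.88 (adjusted p = 0.159), so these bounds hold for the processed signal alone. Elsewhere on the same chromosome lie Clec4d, Clec4e and Clec4n, which encode MCL, Mincle and Dectin-2, lectins that signal through FcRγ. Their signals were above background on both transgenic arrays and on neither wild-type array, and none passed the threshold. The adjusted p was 0.0572 for Clec4d, 0.082 for Clec4e and 0.136 for Clec4n. The bound was 1.80-fold for Clec4e, or 1.13-fold to 2.86-fold with 1 array left out, and 2.59-fold for Clec4n, or 1.64-fold to 4.10-fold. No bound is given for Clec4d, since it fell below 1 without wild-type array 2. Clec12b, an inhibitory lectin, had signals too close to the floor for a fold, and its relative Clec12a was above background on wild-type array 2 alone (-2.54). Clec9a, the dead-cell receptor of cross-presenting dendritic cells, Clec4f, a lectin of liver macrophages, and Clec1a were not well above background on any array.

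Of the 8 Fc receptor genes, the adaptor chain and 1 receptor for IgG passed the threshold. Fcer1g, the shared adaptor chain, read -0.30 and -0.35 on the transgenic arrays, against -2.28 and -2.67 on the wild-type arrays (chr1:173159794-173159853). All 4 values were above background, the groups did not overlap, and the transgenic signal was 4.43-fold higher (log2 difference 2.15 ± 0.20 SE, n = 2 each, limma adjusted p = 0.0221). With normexp the difference was 1.19 and the call held, whereas it was lost when transgenic array 1 or 2 was left out. Fcgr3, an activating receptor for IgG that needs this chain, read -2.86 and -3.00 on the transgenic arrays and -5.45 and -6.48 on the wild-type arrays, the last pair not above background (chr1:172984129-172984188). It was at least 2.21-fold higher (adjusted p = 0.0473), with bounds of 1.39-fold to 3.50-fold when 1 array was left out. With normexp its log2 difference was 0.42, below the log2 bound of 1.14 (adjusted p = 0.324). Fcgr2b, the inhibitory IgG receptor, read -3.46 and -3.34 on the transgenic arrays and -5.57 and -6.73 on the wild-type arrays, the last pair not above background, and missed the threshold (adjusted p = 0.0686), with no bound above 1 left when wild-type array 2 was left out.

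The other Fc receptor genes gave no call. Fcgrt, which salvages IgG and albumin in many cell types, read 5.75 and 5.78 on the transgenic arrays and 5.90 and 6.06 on the wild-type arrays, with a difference of -0.22 ± 0.10 SE (adjusted p = 0.324). Fcer2a, the low-affinity IgE receptor CD23, differed by 0.46 (adjusted p = 0.422). Fcgr4 was above background on transgenic array 1 alone. Fcgr1, the high-affinity IgG receptor, and Fcer1a and Ms4a2, the α and β chains of the mast cell IgE receptor, were not above background on any array.

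Among the Lilr and Pir receptors, both genes that passed the threshold encode inhibitory receptors. Lilrb4a, an ITIM-bearing receptor of myeloid cells, read -0.41 and -0.21 on the transgenic arrays, against -4.73 and -4.89 on the wild-type arrays, the last pair not well above background (chr10:51216160-51216219). It was at least 13.5-fold higher in the transgenic samples on the processed signal (limma adjusted p = 0.0122), and at least 8.52-fold to 21.5-fold with 1 array left out. With normexp background correction the log2 difference was 1.84, below the log2 bound of 3.76, and the call held. The call was lost without transgenic array 2. A second Lilrb4a probe, whose 60 bases span 916 bases of the genome, read -4.05 and -3.56 on the transgenic arrays and -5.34 and -5.92 on the wild-type arrays, the last pair not above background (adjusted p = 0.110 over all probes). Pirb, which binds MHC class I molecules and carries the older name Lilrb3 on the array, read -1.31 and -0.95 on the transgenic arrays, against -4.18 and -4.73 on the wild-type arrays (chr7:3664137-3664196). Again the wild-type values were not above background, and the bound was 7.65-fold (adjusted p = 0.0213), or 4.83-fold to 12.1-fold with 1 array left out. With normexp its log2 difference was 1.10, below the log2 bound of 2.94 (adjusted p = 0.0648).

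The activating relatives of Pirb are near-identical copies of each other and are uncertain as separate genes. The Pira7 probe shares up to 41 consecutive bases with probes of other copies, the Pirb probe none of 20 or more. Pira6 read -2.54 and -2.31 on the transgenic arrays and -3.95 and -3.82 on the wild-type arrays, the value of wild-type array 1 not being above background, and missed the threshold (adjusted p = 0.0662). With that array at its floor the Pira6 signal was at least 2.27-fold higher. Pira7 had an adjusted p of 0.129, and Lilra6, above background on all 4 arrays, differed by 0.87 (adjusted p = 0.199). Of the 5 Lilr and Pir genes tested, 4 entered the test through the transgenic arrays alone.

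Ms4a7, a four-pass membrane protein of macrophages, was the Ms4a gene that passed the threshold. It read -1.25 and -1.53 on the transgenic arrays, against -4.86 and -6.27 on the wild-type arrays, which were not above background (chr19:11395903-11395962). It was at least 6.40-fold higher in the transgenic samples (limma adjusted p = 0.0327), and at least 4.03-fold to 10.2-fold with 1 array left out. With normexp its log2 difference was 1.06, below the log2 bound of 2.68 (adjusted p = 0.0687). Its neighbour Ms4a4a, also expressed in macrophages, read -2.71 and -3.12 on the transgenic arrays and -5.61 and -6.90 on the wild-type arrays, with an adjusted p of 0.0526 and a bound of 2.23-fold, or 1.40-fold to 3.53-fold with 1 array left out. The 18 Ms4a genes lie together on chromosome 19, and 11 were not above background on any array by the probe used, and 6 could be tested. Ms4a4d read 2.21 and 2.17 on the transgenic arrays and 2.22 and 2.33 on the wild-type arrays (difference -0.09, adjusted p = 0.677). Ms4a1, which encodes the B cell antigen CD20, was above background on transgenic array 1 alone.

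No gene of the Siglec, Cd300 or Trem families passed the threshold. Siglece, an inhibitory sialic acid receptor, read 2.91 and 2.71 on the transgenic arrays and 2.31 and 2.93 on the wild-type arrays (difference 0.19, adjusted p = 0.671), and Siglecg differed by 0.78 (adjusted p = 0.546). In the Cd300 family, Cd300lf differed by -0.08 and Cd300lg by -0.03. Cd300ld differed by -0.73 (adjusted p = 0.236), from 3 arrays, since its spot on wild-type array 2 was left out as an outlier. Trem1, measured with the repeat-bearing probe, read 0.80 and 0.94 on the transgenic arrays and 1.19 and 1.13 on the wild-type arrays (difference -0.29, adjusted p = 0.264), and Treml4 had a difference with a 95% interval of 0.20 to 1.80 (adjusted p = 0.194). Trem2, a lipid-sensing receptor of macrophages that pairs with DAP12, was above background on transgenic array 2 alone.

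**Figure D4:**
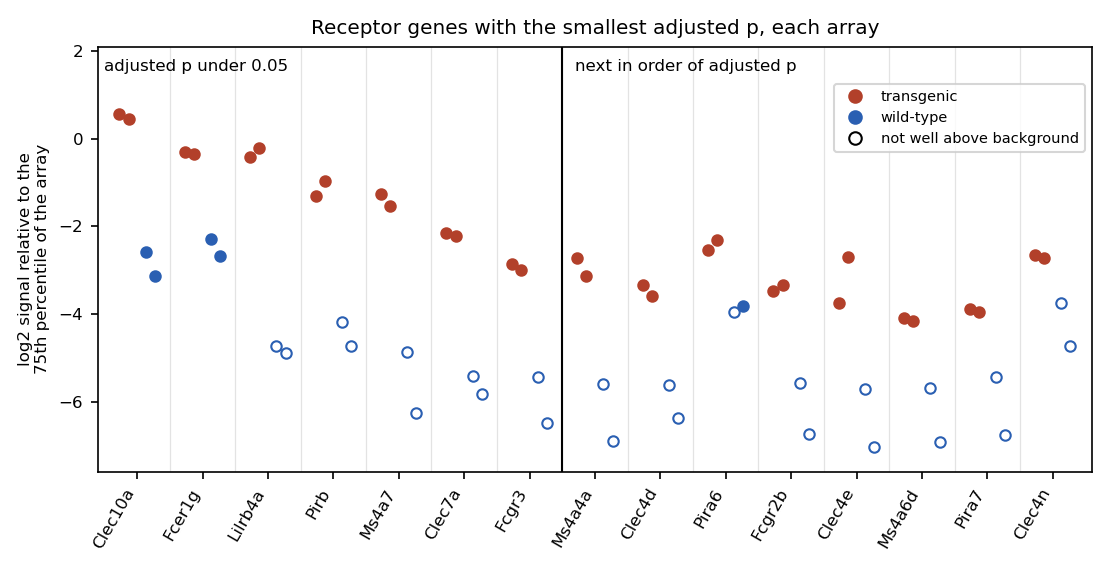
Log2 signal relative to the 75th percentile of the array for the 15 receptor genes with the smallest adjusted p, transgenic arrays left of wild-type arrays, with open circles for signals not well above background. Left of the line are the 7 genes with an adjusted p under 0.05, where all transgenic values lie above all wild-type values of the gene and 5 genes have no wild-type value above background.

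The molecules that carry the signal of these receptors were read beside them, as a list of 29 adaptors, kinases, phosphatases and transcription factors. Of these 20 could be tested, 5 were higher in the transgenic samples (1.09% of all features were) and 0 lower. Tyrobp, the DAP12 adaptor, read -0.29 and -0.21 on the transgenic arrays, against -2.85 and -4.27 on the wild-type arrays, 9.92-fold higher (log2 difference 3.31 ± 0.47 SE, n = 2 each, limma adjusted p = 0.0441). The other 3 beside Fcer1g were Vav1, an exchange factor (at least 4.03-fold, adjusted p = 0.0432), Plcg2, a phospholipase (at least 4.31-fold, adjusted p = 0.0241), and Inpp5d, the lipid phosphatase SHIP-1 (at least 1.67-fold, adjusted p = 0.0411). With 1 array left out the Inpp5d bound ran from 1.05-fold to 2.65-fold. With normexp the log2 difference was 0.83 for Vav1, 0.84 for Plcg2 and 0.28 for Inpp5d, smaller than these bounds, and none of them kept its call (limma adjusted p = 0.0807, 0.0829 and 0.499). Tyrobp kept its call there, with a difference of 1.77. Hcst, the DAP10 adaptor, lay just outside, at an adjusted p of 0.0518. Ptpn6, the SHP-1 phosphatase, differed by 1.44 (adjusted p = 0.0837). Syk itself did not follow: it read 1.92 and 2.14 on the transgenic arrays and 2.82 and 2.32 on the wild-type arrays, a difference of -0.54 ± 0.19 SE (adjusted p = 0.220). Lyn, Fgr, Card9, Lcp2, Grap2, Pik3ap1 and Spi1, the gene of the myeloid factor PU.1, were not above background on any array. The count of 5 was 0 when transgenic array 1 or 2 was left out, and it was 9 without wild-type array 1 and 12 without wild-type array 2.

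**Figure D5:**
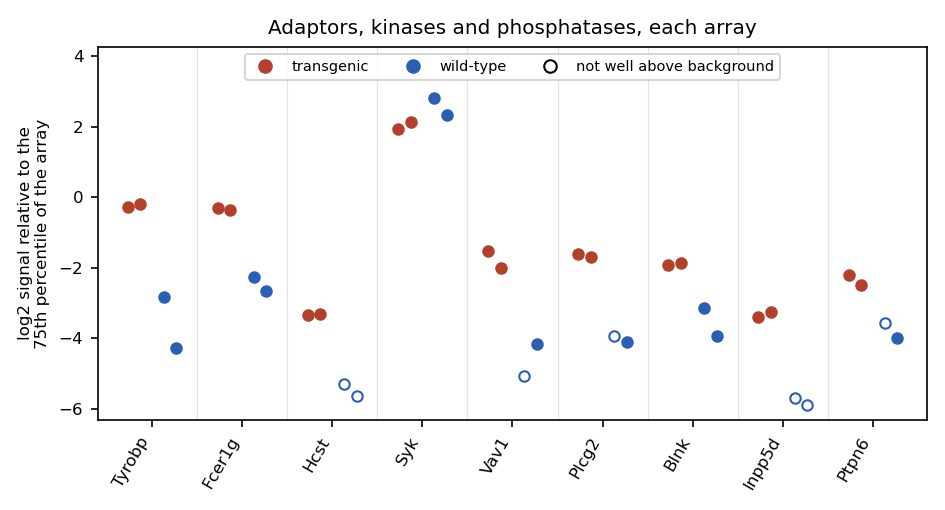
Log2 signal relative to the 75th percentile of the array for 9 signalling partners, transgenic arrays left of wild-type arrays, with open circles for signals not well above background. Tyrobp, Fcer1g, Vav1, Plcg2 and Inpp5d lie higher on both transgenic arrays with an adjusted p under 0.05, while Syk reads 1.92 and 2.14 there, against 2.82 and 2.32 on the wild-type arrays.

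Some markers of other cells were also higher in the transgenic samples. Of 17 macrophage markers listed 14 could be tested, and 7 were higher in the transgenic samples (C1qb, C1qc, Cd14, Folr2, Lyz2, Mrc1 and Pf4). The list's summed signal was 77.0 to 79.5 times the 75th percentile on the transgenic arrays and 68.6 to 69.5 on the wild-type arrays, of which Itgam alone made 67.6% to 68.5% on the transgenic arrays and 77.8% to 81.4% on the wild-type arrays. The 7 called genes summed to 6.53 to 6.91 on the transgenic arrays and 1.74 to 1.78 on the wild-type arrays. The wild-type sums include signals not well above background, from Lyz2 on both wild-type arrays and from C1qc and Mrc1 on wild-type array 1. Sums over called genes here only restate the calls, since the genes were picked by that same difference. Of the defining macrophage genes, Ccr2, Cd163 and Cx3cr1 were not above background on any array. All 4 pan-leukocyte genes tested were higher, Ptprc (CD45), Coro1a, Cytip and Laptm5. Together they summed to 1.48 and 1.56 on the transgenic arrays and 0.2535 and 0.2529 on the wild-type arrays. Higher too were 2 of 4 neutrophil genes, S100a8 and S100a9, 2 of 6 T and natural killer cell genes, Cd3d and Cd3g, and 1 of 10 endothelial genes, Egfl7. Over all features tested, 1.09% were called higher. In these lists 5 macrophage, 3 pan-leukocyte, 2 neutrophil, 2 T and natural killer cell and 4 endothelial genes entered through the transgenic arrays alone. That choice favours genes higher in the transgenic samples. Cd3e, another CD3 chain, and Prf1 had negative differences without a call (-0.99 and -0.36, limma adjusted p = 0.166 and 0.585). In the endothelial list Vwf and Cdh5 lay just outside the threshold (limma adjusted p = 0.0526 and 0.0595). Tek and Kdr alone of that list had negative differences, -0.49 and -0.25, without a call. The neutrophil list summed to 160 to 174 on the transgenic arrays and 136 to 140 on the wild-type arrays, with Csf3r alone at 98.3% to 99.2% of it on the transgenic and 99.7% to 99.8% on the wild-type arrays. S100a8 and S100a9 together summed to 0.981 and 2.37 on the transgenic arrays. No wild-type sum is given, since S100a9 was above background on neither wild-type array and S100a8 on wild-type array 2 alone. The T and natural killer cell list summed to 11.8 to 12.4 on transgenic and 13.5 to 18.4 on wild-type arrays. Cd3e alone made 34.7% to 36.5% of it on the transgenic and 46.5% to 63.1% on the wild-type arrays. Cd3d and Cd3g together summed to 0.33 and 0.27 on the transgenic arrays. Neither was above background on a wild-type array, so no wild-type sum is given. The endothelial list summed to 21.5 to 22.2 on transgenic and 21.0 to 26.1 on wild-type arrays. Kdr alone made 43.9% to 44.9% of it on the transgenic and 42.2% to 57.9% on the wild-type arrays. On this scale Egfl7 was 2.28 and 2.17 on the transgenic arrays, against 0.41 and 0.66 on the wild-type arrays. None of the dendritic (5 tested), mast cell (3) or B cell (3) genes was called by limma, and no eosinophil gene could be tested. Summed signals on the transgenic and the wild-type arrays were 3.62 to 4.50 and 4.49 to 4.99 for the dendritic list, 1.13 to 1.19 and 0.876 to 1.38 for the mast cell list, and 0.611 to 0.811 and 0.406 to 0.544 for the B cell list. Irf4 alone made 59.3% to 64.5% of the dendritic sum on the transgenic and 79.8% to 89.8% on the wild-type arrays. Cd79a made 60.9% to 65.4% and 64.2% to 81.9% of the B cell sum. The 13 progenitor markers, Pdgfra and Cd34 among them, were above background on all 4 arrays and none was called, with summed signals of 4245 and 4298 on the transgenic arrays and 5488 and 4377 on the wild-type arrays. Itgax, Xcr1, Cxcr2 and Kit were not above background on any array. The part of such cells in the receptor differences was not tested, and more cells of a type and more RNA per cell cannot be told apart in these samples. The Adamts1 probe itself differed by 0.13 ± 0.10 SE (adjusted p = 0.516), and whether it reads the transgene's transcript is not given.

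Promoters could be read for 5 of the 7 genes that were higher, and 3 are shown because they hold the letters GAGGAA, the core of the purine-rich box bound by PU.1. The letters were sought on both strands in the 250 bases before each start in RefSeq on build GRCm38.p6, and every match is in capitals.
Fcgr3, chr1:171059404-171059653, minus strand: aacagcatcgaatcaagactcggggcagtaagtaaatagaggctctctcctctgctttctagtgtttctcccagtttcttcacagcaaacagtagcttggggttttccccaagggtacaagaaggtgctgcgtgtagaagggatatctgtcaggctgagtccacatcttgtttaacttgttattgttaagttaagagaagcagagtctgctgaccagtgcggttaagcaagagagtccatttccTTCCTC
Pirb, chr7:3720383-3720632, minus strand: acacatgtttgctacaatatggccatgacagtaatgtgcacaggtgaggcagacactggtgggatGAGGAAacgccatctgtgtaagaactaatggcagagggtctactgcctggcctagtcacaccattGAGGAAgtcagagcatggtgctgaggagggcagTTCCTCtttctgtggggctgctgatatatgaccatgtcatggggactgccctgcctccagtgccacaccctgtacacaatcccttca
Clec7a, chr6:129472780-129473029, minus strand: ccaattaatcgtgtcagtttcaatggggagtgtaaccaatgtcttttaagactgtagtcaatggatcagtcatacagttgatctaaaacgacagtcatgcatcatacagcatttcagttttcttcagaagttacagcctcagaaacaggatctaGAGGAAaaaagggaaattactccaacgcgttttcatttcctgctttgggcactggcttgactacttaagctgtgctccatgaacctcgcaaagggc
Pirb holds 3 matches, Fcgr3 1, which begins 6 bases before the listed start, and Clec7a 1, which begins 96 bases before its start. The windows of Fcer1g and Ms4a7 hold none. Of the 66 receptor genes with a promoter entry, 34 (51.5%) hold the letters in at least 1 window, against 6986 of 27025 genes (25.9%). The receptor genes that were not called hold them about as often, 31 of 61 (50.8%), as a description with no test. In the same samples the Spi1 probe was not well above background on any array, and an absent transcript and a probe that does not respond cannot be told apart.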

How the data were processed

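RNA from sorted subcutaneous adipocyte progenitors was labelled with Cy3 by a low input kit for single-colour Agilent mouse arrays, as the labels' protocols state. The processed intensity the authors deposited is background-subtracted by Agilent Feature Extraction 10.7.3.1, with probe positions on mm9, per the file headers, and the raw intensities in the same files served an alternative. The log2 series table the authors deposited matched the centred scanner values (r = 0.99998 to 0.99999), with column medians of -0.045 and 0.019 for the transgenic and 0.193 and -0.021 for the wild-type arrays. The steps behind it are not given in the sources used here. All 4 arrays shared 1 slide and 1 scan.

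Control and outlier spots were left out, the spots of a probe averaged on the log2 scale, and each array's 75th percentile subtracted. Symbols were updated through accessions in a RefSeq table (GRCm38.p6), which named 26582 probes, 2892 of them otherwise than the design. No exon or UTR annotation of mm9 was used. Each gene was represented by its brightest probe, and tested if well above background on both arrays of a group. The comparison used limma 3.58.1 under R 4.3.3 (lmFit, eBayes with trend, 2-sided, residual degrees of freedom 2, Benjamini-Hochberg over 24620 features, adjusted p under 0.05). An exact permutation test of 2 against 2 arrays cannot go below p = 0.333. The arrays correlated at 0.994 (transgenic) and 0.984 (wild-type), and the number of arrays and the background limit the precision. With the median SE of 0.18 over all features tested, an unadjusted 95% interval excludes no change from 1.36-fold on. Among the 7 called receptor genes the SE was larger, from 0.20 (Fcer1g) to 0.50 (Ms4a7). Same-numbered arrays did not deviate together (correlation 0.0029), so the main fit used no pairing. With 1 difference per group this cannot exclude that same-numbered samples belong together.

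The members and lists were chosen with earlier results of these data known. Named genes were those called, those above background on all 4 arrays, the smallest p and highest level of each family, a set of cell type landmarks, and called partners with Tyrobp, Fcer1g, Syk and Ptpn6. The genes close to the threshold, and those named only as below background or above it on a single array, were picked after their values were seen. Alternatives covered background correction, scaling, filters, trend, probes, the series table, left-out arrays and a replicate block.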

Additional observations from a re-analysis of the deposited data

How the results depend on the processing

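With 2 arrays a group, the count of higher receptor genes depended on the processing. From 7 it went to 3 with normexp background correction, 2 when only features above background on all 4 arrays were kept, 1 without an intensity trend (Lilrb4a), 11 with the replicate block, and 1 to 18 with an array left out, and the cause was not tested except that the stricter filter removes the genes below background in wild-type. It was 6 to 9 with quantile scaling, a median shift, normexp with quantile scaling, no filter, every probe tested, outlier spots kept or the series table. The count of lower genes was 0 under each except 2 without wild-type array 1, Clec3b and Clec12a, so 0 to 2 with an array left out. The 2 calls among genes above background on all 4 arrays became 0 without the trend and 1 to 2 with an array left out, and stayed at 2 otherwise. The 5 partner calls became 2 with normexp, 2 with quantile scaling, 3 with both, 3 with a median shift, 3 with the stricter filter, 0 without the trend, 9 with the replicate block and 0 to 12 with an array left out. The pairing behind that block is a shared number only, and the block changed no other call among the receptor genes than to add Clec4d, Clec4e, Fcgr2b and Ms4a4a. All 7 genes kept their direction in each alternative that tested them. Fcgr3 lost its call with normexp, the median shift, the series table and the missing trend, Clec7a, Ms4a7 and Pirb with normexp and the missing trend, and Clec10a and Fcer1g with the missing trend alone among the alternatives that kept all arrays.

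Signs that turned belonged to genes with no call. With normexp Clec1b was -0.064, Fcer2a -0.0051 and Ms4a4c 0.026, with quantile scaling Ms4a4c was 0.0095, and with both it was 0.0084. With an array left out, the differences ranged over -0.54 to 0.39 for Cd300lf, -0.079 to 0.019 for Cd300lg, -0.23 to 0.12 for Clec16a, -0.11 to 0.81 for Clec2d, -0.12 to 0.50 for Siglece, -0.095 to 1.65 for Siglecg and -0.0073 to 0.096 for Siglech. Signals below background set only bounds, and 34 of 83 receptor genes were above it on no array by the probe used.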

Other observations

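Neighbouring receptor genes differed in whether they could be read. On chromosome 1 the 5 Fc receptor genes held 3 that could be tested, and Fcgr3 and Fcer1g were higher in the transgenic samples (limma, adjusted p under 0.05). In the lectin cluster of chromosome 6 around Clec7a, 6 of 11 genes could be tested and Clec7a alone was called, and in the cluster around Clec4e 5 of 9 could be tested with none called. The 7 genes around Pirb on chromosome 7 held 4 tested and 1 called. The 6 Cd300 genes of the chromosome 11 cluster held 4 tested and none called, and the 6 Trem genes of chromosome 17 held 3 tested and none called. Outside the receptors, S100a9, a calcium-binding protein abundant in neutrophils, was at least 19.9-fold higher in the transgenic samples (limma adjusted p = 0.0231), or 11.9-fold to 33.2-fold with 1 array left out, its transgenic values being -0.50 and 0.98. Lyz2, a lysozyme of macrophages and neutrophils, was at least 6.61-fold higher (limma adjusted p = 0.0187), or 4.17-fold to 10.5-fold with 1 array left out. Neither had a wild-type value well above background.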
